A study of Mus musculus with 6 samples.

Results

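The 10 genes described here encode the constant parts of the αβ T cell receptor complex and its coreceptors: the CD3 chains Cd3e, Cd3d, Cd3g and Cd247, the coreceptor chains Cd4, Cd8a and Cd8b1, and the receptor constant regions Trac, Trbc1 and Trbc2. They were taken by gene name from the deposited table and are 10 of its 28945 genes. RNA came from CD4+ T cells of mouse spleen, in 3 libraries of db/db mice (DM), a strain with a defective leptin receptor, obesity and diabetes, and in 3 libraries of C57BL/6J mice (CONT). The series title names eldecalcitol, a vitamin D analogue, but no library here was labelled with it. The labels give neither the age of the mice nor whether the strains share a full background. They do not say that each library came from its own animal, so the spread that p-values are set against is that of libraries and may be technical.

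On a helper T cell, an α chain and a β chain bind peptide on MHC class II. Neither chain can signal, and both reach the surface only together with the CD3 γ, δ and ε chains and a homodimer of ζ, the product of Cd247, whose cytoplasmic motifs are phosphorylated by Lck. CD4 binds MHC class II and brings Lck to the complex, while CD8, a dimer of α and β chains, does the same for MHC class I on cytotoxic T cells.

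Of the markers of the labelled cell type, Cd4 was between 82.4 and 220 FPKM in all 6 libraries, and Cd8a was below 1 FPKM in 5 of them. RNA of other cells was present too: Lyz2, a lysozyme of myeloid cells, was at 349, 170 and 845 FPKM in DM libraries and at no more than 29.6 FPKM in CONT libraries, and Jchain, of plasma cells, was at 269, 226 and 374 FPKM in DM libraries and 12.9, 102 and 40.4 FPKM in CONT libraries. FPKM counts fragments relative to transcript length and library size, so levels of different genes can be set side by side, within the limits of the length trend given next. The depth behind the values is unknown, since the table holds no counts. FPKM of all genes summed to between 385070 and 410282 in DM libraries and to between 248070 and 369531 in CONT libraries.

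Before the genes are compared, libraries CONT 1 and DM 3 need a word, because they stand apart. In CONT 1, short transcripts were low and long transcripts high. Its median deviation from the mean of the other libraries, on the log2(FPKM + 1) scale, was -1.32 for protein-coding genes of up to 800 bases and 0.69 for those over 5000 bases. Its profile correlated with those of the other CONT libraries at a mean r of 0.88, while each other library reached at least 0.915 within its group. In DM 3 the joint level of markers of other blood cells was highest: a score of B cell, plasma cell, myeloid, basophil, erythroid and natural killer markers was 4.80 there, 2.85 and 3.46 in the other DM libraries and between 1.87 and 2.10 in CONT libraries. Basophil and mast cell markers went the other way among DM libraries, with summed levels of 334, 128 and 68.8 FPKM in DM 1, 2 and 3. The 10 genes together were 0.479%, 0.715% and 0.569% of the FPKM sum in DM libraries 1, 2 and 3, against 0.843%, 0.756% and 0.900% in CONT libraries 1, 2 and 3, so their joint share was lower in each DM library than in any CONT library. That share also moves with the total: the summed FPKM of the 10 overlapped, at 1965, 2847 and 2190 in DM libraries and 2092, 2475 and 3327 in CONT libraries, and scaling all libraries to 1 total moved the median log2 difference of all genes to -0.32. In bulk RNA, fewer T cells and less of these RNAs per T cell cannot be told apart.

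**Figure D1:**
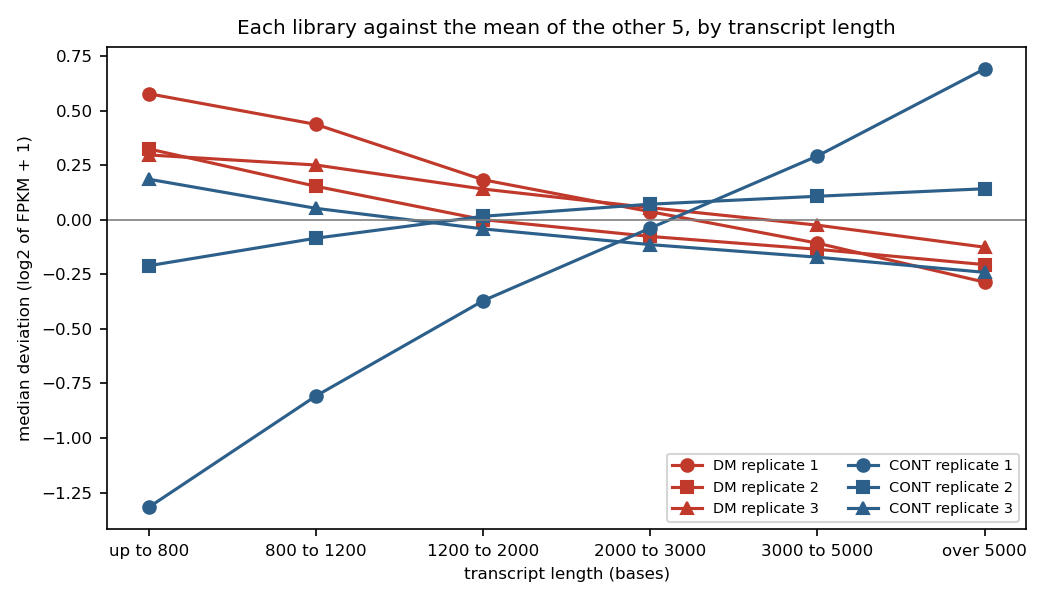
Median deviation of each library from the mean of the other 5 on the log2(FPKM + 1) scale (vertical axis), for tested protein-coding genes in 6 classes of transcript length in bases (horizontal axis), with red lines for DM, blue lines for CONT and the marker for the replicate. CONT replicate 1 climbs from -1.32 in the shortest class to 0.69 in the longest. CONT replicate 2 climbs less steeply, from -0.21 to 0.14. The DM libraries and CONT replicate 3 slope the other way. Each line is set against the other 5, so the climb of CONT replicate 1 also tilts the other lines.

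That slope bears on genes of different length. Across tested protein-coding genes of up to 800 bases the median DM to CONT difference was 0.74 on the log2(FPKM + 1) scale, over 346 genes. For 1993 such genes over 5000 bases it was -0.32. Without CONT 1 the same medians were 0.32 and -0.13. The transcript lengths of the 10 genes ran from 692 bases for Trbc2 to 3128 bases for Cd8a, so a length correction, in which the length trend of every library was taken off, is given beside the results that it moves most.

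None of the 10 genes passed the test between DM and CONT libraries, in limma on log2(FPKM + 1) at a Benjamini-Hochberg adjusted p below 0.05 over 13106 tested genes. Among all tested genes 1.52% passed, 166 of them (1.27%) higher and 33 (0.252%) lower in DM. Before adjustment, the p of 2 of the 10 (Cd3e and Cd4) was below 0.05 with lower values in DM, beside 6.24% of all genes. Every DM library was below every CONT library for 3 of the 10 (Cd3e, Cd4 and Trac), where 13.2% of all genes were, and none of the 10 was above in that way; counting both directions, 27.1% of all genes had groups that did not overlap, and 16.0% an unadjusted p below 0.05. The median difference of the 10 was -0.10 on the log2 scale, and that of all tested genes -0.014. Cd8a passed the minimum of 1 FPKM in a group mean only through DM 3.

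**Figure D2:**
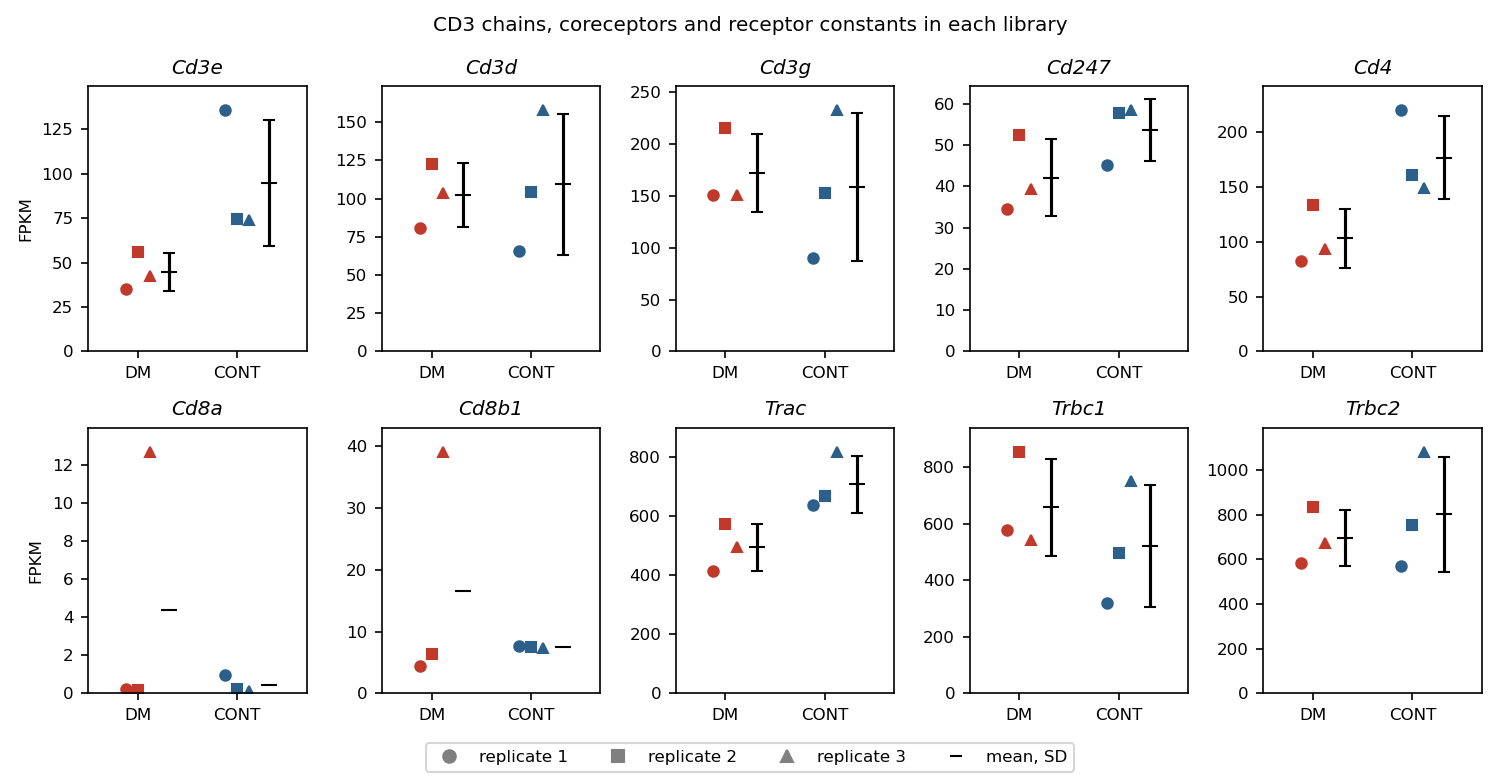
FPKM of the 10 genes in each library, DM in red left of CONT in blue, with the marker for the replicate and black marks for the mean and SD (n = 3; for Cd8a and Cd8b1 the mean only). Cd3e, Cd4 and Trac are lower in each DM library than in any CONT library, while Cd8a and Cd8b1 are set apart in DM replicate 3 alone.

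The CD3 γ, δ and ε chains are encoded side by side on chromosome 9. Their promoters are shown because Cd3d and Cd3g varied together over all libraries pooled while Cd3e did not. That contrast leans on CONT 1, where Cd3e was at its highest and Cd3d and Cd3g were at their lowest. Cd3g and Cd3d start 1355 bases apart on opposite strands, and Cd3e starts 27841 bases beyond Cd3d. Each stretch is 300 bases of RefSeq sequence (GRCm38.p6) around the start of the gene, most of them before it, written 5′ to 3′ on the strand of the gene. Capitals mark matches, on either strand, to 6 motifs: the TATA box (TATAAA) and the motifs of RUNX factors (TGTGGT), of TCF-1 and LEF-1 (CTTTGA), of ETS factors (GGAAGT), of GATA factors (GATAA) and of E-box factors (CANNTG).
Cd3g, chr9:44980382-44980681, minus strand: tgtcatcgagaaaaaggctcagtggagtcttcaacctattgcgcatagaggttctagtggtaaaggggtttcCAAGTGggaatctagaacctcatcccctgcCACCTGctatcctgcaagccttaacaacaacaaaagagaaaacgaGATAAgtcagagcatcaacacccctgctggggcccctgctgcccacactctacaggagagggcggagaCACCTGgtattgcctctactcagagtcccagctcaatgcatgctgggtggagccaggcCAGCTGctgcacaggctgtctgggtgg
Cd3d, chr9:44981536-44981835, plus strand: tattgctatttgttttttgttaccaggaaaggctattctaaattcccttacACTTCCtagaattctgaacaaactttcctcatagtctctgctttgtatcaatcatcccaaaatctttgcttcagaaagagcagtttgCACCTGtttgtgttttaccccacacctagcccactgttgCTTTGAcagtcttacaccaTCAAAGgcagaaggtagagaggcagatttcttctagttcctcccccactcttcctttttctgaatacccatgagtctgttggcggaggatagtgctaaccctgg
Cd3e, chr9:45009562-45009861, minus strand: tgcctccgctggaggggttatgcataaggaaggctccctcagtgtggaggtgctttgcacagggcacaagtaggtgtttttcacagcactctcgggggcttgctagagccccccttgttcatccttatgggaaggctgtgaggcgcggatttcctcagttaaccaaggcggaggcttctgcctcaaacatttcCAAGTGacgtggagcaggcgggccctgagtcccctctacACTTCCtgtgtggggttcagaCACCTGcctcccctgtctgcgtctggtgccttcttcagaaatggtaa

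The Cd3g promoter holds 4 E-box matches and 1 GATAA match. That of Cd3d holds 2 CTTTGA matches, 1 GGAAGT and 1 E-box match, and that of Cd3e holds 1 GGAAGT match and 2 E-box matches. No capitals in the 3 stretches overlap. Among 32851 promoters of the same length, the E-box letters were in 72.3%, GATAA in 25.4%, GGAAGT in 23.8%, TGTGGT in 16.8%, CTTTGA in 16.0% and TATAAA in 13.6%. Neither TATAAA nor TGTGGT is in these windows. A match is a stretch of letters and not a measured binding site. The table of promoters held 5 of the 10 genes; Cd4, Cd8b1, Trac, Trbc1 and Trbc2 are named only.

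Cd3e encodes the ε chain, which pairs with both γ and δ and occurs in each receptor complex in both pairs. It lies at 44998740 to 45009627 of chromosome 9 on the minus strand (GRCm38, GENCODE M21), where an antisense gene, Gm48719, and an unconfirmed transcript, Gm48720, overlap it. The sources used here do not say whether the counting used strand, so reads of Gm48719 cannot be told apart. Gm48720 lies on the strand of Cd3e, so strand would not set its reads apart in any case. Cd3e was at 35.2, 56.0 and 42.6 FPKM in DM libraries 1, 2 and 3, against 136, 74.5 and 74.1 FPKM in CONT libraries 1, 2 and 3. All DM libraries were below all CONT libraries, and CONT 1 was far above the other CONT libraries. Means were 44.6 ± 10.6 FPKM in DM and 94.8 ± 35.6 FPKM in CONT (SD, n = 3 each). The difference was -1.04 ± 0.32 on the log2 scale (limma, 95% interval -1.80 to -0.28), with an adjusted p of 0.211, and did not pass. Without CONT 1 it was -0.75 (limma adjusted p = 0.232), and after length correction -1.23 (limma adjusted p = 0.199), so the direction held with and without that library.

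Cd3d encodes the δ chain, the partner of ε next to the receptor α chain. It lies at 44981786 to 44987339 of chromosome 9 on the plus strand. Its levels were 81.0, 122 and 103 FPKM in DM libraries and 65.8, 104 and 158 FPKM in CONT libraries. The DM values fell inside the range of CONT, whose library 1 was the lowest and library 3 the highest of all 6. Averages were 102 ± 20.7 FPKM in DM and 109 ± 46.3 FPKM in CONT, a difference of -0.027 ± 0.37 on the log2 scale (limma adjusted p = 0.968). Its 95% interval, -0.89 to 0.84, leaves room for a change of either sign, and the difference was -0.18 after length correction.

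Cd3g encodes the γ chain, which pairs with ε next to the receptor β chain. It lies at 44969572 to 44980431 of chromosome 9 on the minus strand. Its levels were 151, 216 and 150 FPKM in DM libraries and 89.8, 153 and 233 FPKM in CONT libraries. Again CONT held both the lowest and the highest library, and the groups overlapped. The difference was 0.20 ± 0.40 on the log2 scale (95% interval -0.74 to 1.14, limma adjusted p = 0.768). It was -0.15 without CONT 1 and -0.12 after length correction, so no direction can be given for Cd3g.

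Cd247 encodes ζ, the chain with most of the signalling motifs of the complex. The gene lies away from the other chains, at 165788681 to 165877277 of chromosome 1 on the plus strand, where 6 annotated genes overlap it, Pou2f1 on the opposite strand among them. Cd247 was at 34.5, 52.5 and 39.4 FPKM in DM libraries and 45.1, 57.7 and 58.5 FPKM in CONT libraries. The DM 2 value was above that of CONT 1, so the groups overlapped by that pair of libraries. Means were 42.1 ± 9.34 FPKM in DM and 53.8 ± 7.49 FPKM in CONT, and the difference was -0.36 ± 0.25 on the log2 scale (95% interval -0.93 to 0.22, limma adjusted p = 0.422).

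Ratios of these chains within a library do not move with the scaling of that library, and 9 such ratios were compared. With 3 libraries against 3, the smallest p that the two-sided exact permutation test can give is 0.10, so no ratio could pass 0.05. The log2 ratio of Cd3e to Cd3g was -2.10, -1.95 and -1.82 in DM libraries, against 0.60, -1.04 and -1.65 in CONT libraries. The DM libraries lay close together and below all CONT libraries, which were spread widely, CONT 3 being close to the DM libraries. The difference was -1.26 (exact p = 0.10, 0.15 after adjustment over the 9 ratios), and -0.61 without CONT 1. In that ratio the ε chain RNA was thus lower relative to γ in 3 of 3 DM libraries.

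The ratio of Cd3e to Cd3d showed the same order, at -1.20, -1.13 and -1.28 in DM libraries and 1.05, -0.49 and -1.09 in CONT libraries on the log2 scale. Its difference was -1.03 (exact p = 0.10, adjusted 0.15), and -0.41 without CONT 1. Cd247 relative to Cd3e was at -0.03, -0.09 and -0.11 in DM libraries and -1.59, -0.37 and -0.34 in CONT libraries. All DM values were above those of CONT, a difference of 0.69 with all libraries, 0.28 without CONT 1 and 0.93 after length correction (exact p = 0.10 in each). Cd3d relative to Cd3g, the neighbouring pair, was at -0.90, -0.82 and -0.54 in DM libraries and -0.45, -0.55 and -0.56 in CONT libraries. Here the groups overlapped, with a difference of -0.23 (exact p = 0.30, adjusted 0.386), and of -0.068 after length correction.

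**Figure D3:**
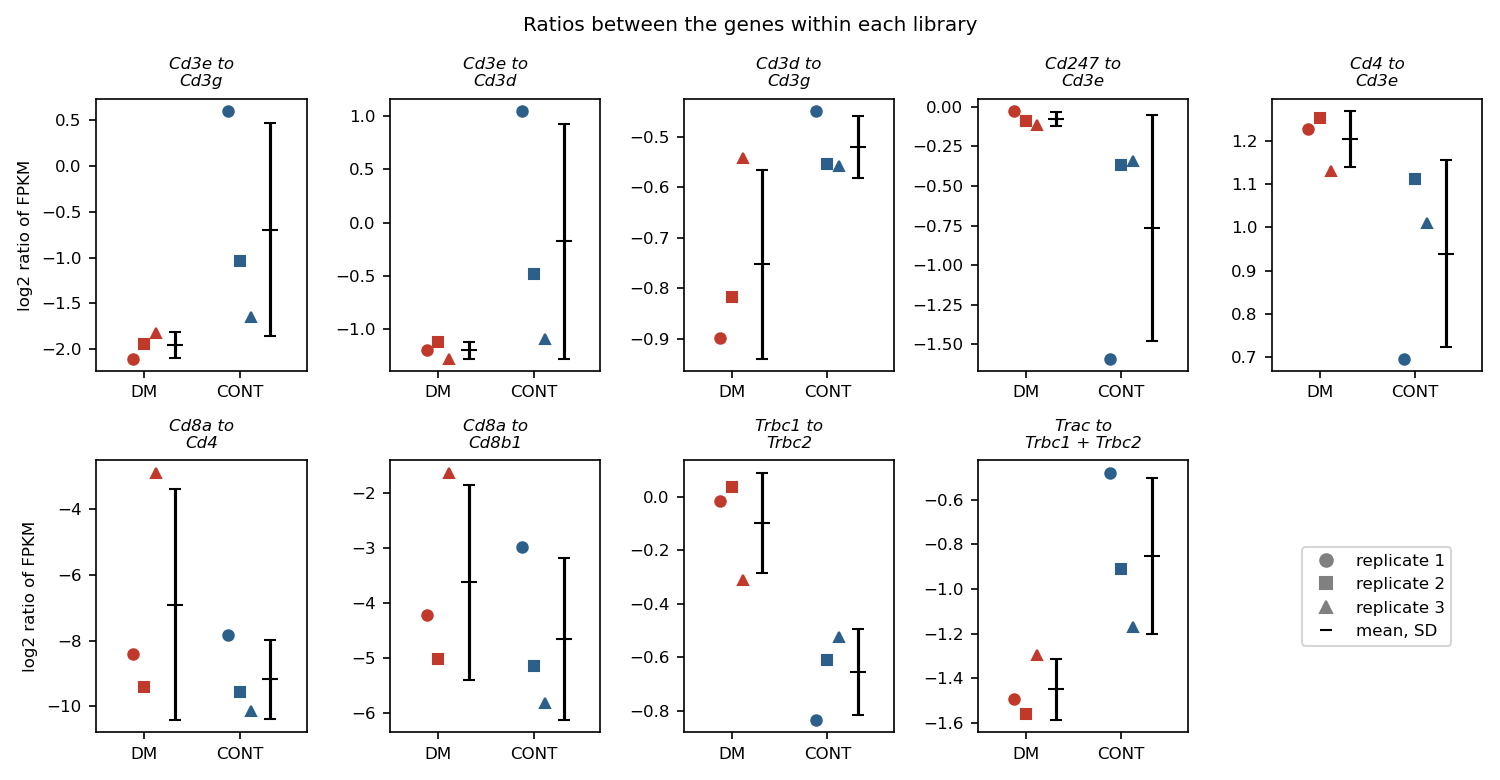
Log2 ratios of FPKM between pairs of the 10 genes within each library, DM in red left of CONT in blue, with the marker for the replicate and black marks for the mean and SD (n = 3). The DM libraries lie below every CONT library for Cd3e relative to Cd3g and to Cd3d, and above every CONT library for Trbc1 relative to Trbc2.

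Across the 6 libraries the genes fell into sets that rose and dipped together, given here as a description with both groups pooled. Cd3d correlated with Cd3g (Pearson r of log2(FPKM + 1) = 0.93) and with Trbc2 (r = 0.96), and Cd3g with Trbc1 (r = 0.97). Cd3e went with Cd4 (r = 0.98) and not with Cd3g (r = -0.45) or Cd3d (r = -0.21). These r values lean on CONT 1, which had the highest Cd3e (136 FPKM) and the lowest Cd3g (89.8 FPKM) and Cd3d (65.8 FPKM). They were not computed without CONT 1, so they do not show that Cd3e varied apart from Cd3g and Cd3d in the other libraries. Cd247 went with Trac (r = 0.90). The points share the library, with its length trend and depth. The tested genes most like Cd3e were Parp10 (r = 0.998), Inpp4b (0.997) and Slfn8 (0.997), and 488 genes reached an r above 0.95 with it. For Cd3g they were Slfn2 (0.999), C330018D20Rik (0.997) and Atp6v1d (0.996), with 123 genes above 0.95.

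The coreceptor Cd4, at 124864692 to 124888221 of chromosome 6 on the minus strand, was at 82.4, 134 and 93.2 FPKM in DM libraries. In CONT libraries it was at 220, 161 and 149 FPKM. No DM library reached the lowest CONT library, and CONT 1 was again the highest. Averages were 103 ± 27.0 FPKM in DM and 177 ± 38.1 FPKM in CONT (SD, n = 3 each). The log2 difference of -0.78 ± 0.31 (95% interval -1.50 to -0.07) had an unadjusted p of 0.0363 and an adjusted p of 0.292 in limma, and did not pass. Without CONT 1 it was -0.61, and after length correction -0.72.

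Relative to Cd3e, Cd4 was not lower: the log2 ratio was 1.23, 1.25 and 1.13 in DM libraries and 0.70, 1.11 and 1.01 in CONT libraries. DM values were above all CONT values, with a difference of 0.27 (exact p = 0.10, adjusted 0.15), of 0.14 without CONT 1 and of 0.52 after length correction. The genes most like Cd4 were Ccnd2 (r = 0.998), which encodes cyclin D2, Cd40lg (0.997), the ligand by which helper T cells signal to B cells, and Dop1a (0.997), with 317 genes above 0.95. Lag3, the inhibitory relative of Cd4 encoded beside it, was at 4.31, 2.60 and 5.27 FPKM in DM libraries and 11.6, 2.54 and 4.0 FPKM in CONT libraries, which overlapped.

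The CD8 chains were low in most libraries of these CD4+ cells. Cd8a, which encodes the α chain and lies at 71373427 to 71379173 of chromosome 6 on the plus strand, was at 0.243, 0.194 and 12.7 FPKM in DM libraries. In CONT libraries it was at 0.967, 0.211 and 0.131 FPKM. Only DM 3 was above 1 FPKM, and the other DM libraries lay within the range of CONT. The difference, 0.97 ± 0.90 on the log2 scale (95% interval -1.16 to 3.10, limma adjusted p = 0.529), rests on DM 3, and without it Cd8a was below the level tested.

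Cd8b1 encodes the β chain and lies 50639 bases from Cd8a, start to start, at 71322788 to 71337494 of the same strand. It was at 4.51, 6.31 and 39.0 FPKM in DM libraries and 7.65, 7.48 and 7.38 FPKM in CONT libraries. DM 3 was far above all others, and the remaining DM libraries were below all of CONT. The difference was 0.46 ± 0.68 on the log2 scale (95% interval -1.14 to 2.06, limma adjusted p = 0.686), -0.42 without DM 3 and 0.27 after length correction. In each library Cd8b1 was above Cd8a: the log2 ratio of Cd8a to Cd8b1 was -4.21, -5.02 and -1.62 in DM libraries and -2.98, -5.15 and -5.82 in CONT libraries. The groups overlapped, with a difference of 1.03 (exact p = 0.50). Cd8a relative to Cd4 was at -8.40, -9.42 and -2.88 in DM libraries and -7.83, -9.58 and -10.15 in CONT libraries on the log2 scale, and again only DM 3 lay outside the range of CONT (difference 2.28, exact p = 0.40, adjusted 0.45).

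DM 3 was also the library with the most RNA of other cells. The 10 B cell markers summed to 335 FPKM in DM 3, to 11.2 and 15.3 FPKM in the other DM libraries and to between 5.50 and 23.8 FPKM in CONT libraries. The 8 dendritic cell markers, chosen because one type of dendritic cell carries CD8α, summed to 29.1 FPKM in DM 3, 11.6 and 14.7 FPKM in other DM libraries and 3.31 to 4.0 FPKM in CONT libraries. Xcr1, which marks that type, was at 0.578 FPKM in DM 3 and no higher than 0.306 FPKM in any other library.

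The summed level of cytotoxic T cell markers was also highest in DM 3, but not every gene of the list was. Prf1, Runx3, Crtam and Eomes were each higher in some other library, while the rest of the list was highest in DM 3. The list of 10, Cd8a and Cd8b1 among them, summed to 112, 88.3 and 372 FPKM in DM libraries and to between 73.4 and 88.6 FPKM in CONT libraries. Gzma, a granzyme, was at 20.9, 14.3 and 154 FPKM in DM libraries and 2.79, 3.02 and 2.45 FPKM in CONT libraries (log2 difference 3.32 ± 0.79, limma adjusted p = 0.111). Eomes, a factor of cytotoxic and memory T cells, was at 1.49, 1.73 and 4.77 FPKM in DM libraries and 5.65, 2.32 and 2.84 FPKM in CONT libraries. None of the 10 passed the test, and the list's median log2 difference was 0.52 with all libraries and -0.037 without DM 3. Gzma alone of the list passed without DM 3 (log2 difference 2.29, limma adjusted p = 0.0342), where 67 of 12940 tested genes passed. What part any of these cells had in the CD8 values was not tested.

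**Figure D4:**
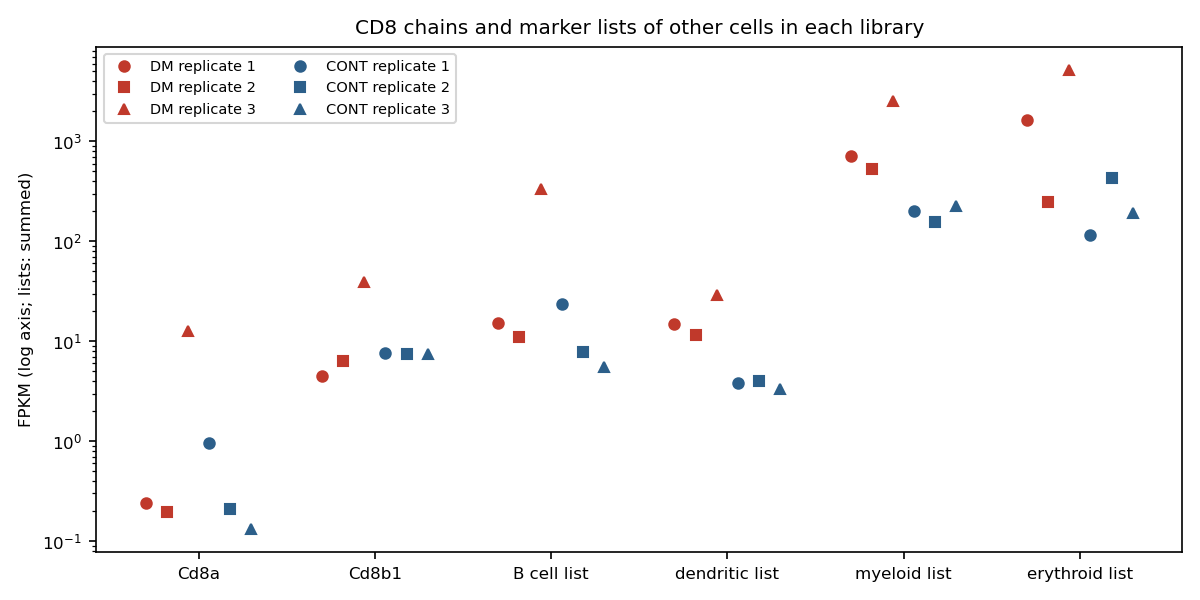
FPKM of Cd8a and Cd8b1 and summed FPKM of 4 marker lists of other blood cells in each library (log axis), DM in red left of CONT in blue, with the marker for the replicate. DM replicate 3 is highest for both CD8 chains, at 12.7 and 39.0 FPKM, and for the B cell list, at 335 FPKM.

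Trac, the constant region of the α chain, is a single gene at 54220521 to 54224206 of chromosome 14 on the plus strand. It was at 413, 572 and 495 FPKM in DM libraries, against 638, 665 and 815 FPKM in CONT libraries. All DM libraries were below all CONT libraries, and CONT 1 did not stand out. The averages were 494 ± 79.5 FPKM in DM and 706 ± 95.3 FPKM in CONT (SD, n = 3 each), with a log2 difference of -0.52 ± 0.32 (95% interval -1.28 to 0.24, limma adjusted p = 0.388). Without CONT 1 the difference was -0.59, and after length correction -0.85 (limma adjusted p = 0.209). Most like Trac over the 6 libraries was a joining segment of the β locus, Trbj2-3 (r = 0.994), followed by Adh1 (0.993) and Apol7b (0.991), with 41 genes above 0.95.

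The β chain has a pair of constant genes, Trbc1 and Trbc2, which lie 8512 bases apart on chromosome 6, plus strand, at 41538218 to 41539881 and 41546730 to 41548352. Each follows its own cluster of joining segments, and a rearranged β chain uses one or the other. Their coding parts are so alike that reads can match both: of 518 aligned bases 495 (95.6%) were identical, with 23 substitutions and no gap, and the first 259 bases did not differ at all. The 3′ end, coding bases 381 to 518, holds 22 of the differing bases and is shown because most of the coding differences lie there; capitals mark the bases that differ (GENCODE M21 transcripts, GRCm38).
Trbc1: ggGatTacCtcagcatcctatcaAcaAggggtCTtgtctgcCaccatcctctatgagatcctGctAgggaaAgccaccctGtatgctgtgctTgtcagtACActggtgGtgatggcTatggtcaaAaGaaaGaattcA
Trbc2: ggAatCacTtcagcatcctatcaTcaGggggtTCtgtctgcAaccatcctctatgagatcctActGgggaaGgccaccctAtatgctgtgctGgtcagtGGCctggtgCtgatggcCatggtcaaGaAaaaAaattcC

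The sources used here do not say how the authors treated reads that match both genes, so the single values are uncertain. Trbc1 was at 578, 854 and 542 FPKM in DM libraries and 319, 496 and 752 FPKM in CONT libraries. The groups overlapped, with CONT 1 the lowest and DM 2 the highest library. The log2 difference was 0.39 ± 0.42 (95% interval -0.60 to 1.38, limma adjusted p = 0.584), and 0.079 without CONT 1 or 0.041 after length correction.

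Trbc2 was at 585, 833 and 673 FPKM in DM libraries and 569, 756 and 1081 FPKM in CONT libraries, again with overlap. Its log2 difference was -0.17 ± 0.38 (95% interval -1.06 to 0.72, limma adjusted p = 0.798), and -0.52 after length correction. The pair differ little in length, at 737 and 692 bases, so a length trend touches their ratio little. Trbc1 relative to Trbc2 was at 0.990, 1.03 and 0.806 in DM libraries and 0.561, 0.656 and 0.696 in CONT libraries, as a ratio of FPKM. Each DM library was above each CONT library, and DM 3 was the closest to CONT. On the log2 scale the difference was 0.56 (exact p = 0.10, the smallest the design allows, 0.15 after adjustment over 9 ratios). Under the alternatives it lay between 0.47 and 0.67, at 0.47 without CONT 1 and at 0.56 after length correction.

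The joining segments give a second reading of the same choice, from other rows of the table. This reading was chosen after the constant genes had been seen. The 7 rows of the Trbj1 cluster, which lies before Trbc1, summed to 521, 777 and 498 FPKM in DM libraries and 633, 558 and 648 FPKM in CONT libraries. The 7 rows of Trbj2, before Trbc2, summed to 478, 639 and 538 FPKM in DM libraries and 689, 681 and 861 FPKM in CONT libraries. Their ratio, Trbj1 to Trbj2, was 1.09, 1.22 and 0.925 in DM libraries and 0.919, 0.820 and 0.753 in CONT libraries. The lowest DM library, again DM 3, was just above the highest CONT library, CONT 1. Within CONT the order was opposite to that of the constant genes: CONT 1 was highest for Trbj1 to Trbj2 and lowest for Trbc1 to Trbc2. The segments are very short, and the FPKM of such features depends strongly on how length was handled, so only their ratio is read here.

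Trac relative to the sum of Trbc1 and Trbc2 was at -1.49, -1.56 and -1.30 in DM libraries and -0.48, -0.91 and -1.17 in CONT libraries on the log2 scale. All DM libraries were below all CONT libraries, the nearest being DM 3 and CONT 3. The difference was -0.60 (exact p = 0.10, adjusted 0.15), -0.41 without CONT 1 and -0.58 after length correction.

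By level, the constant regions were the most abundant of the 10 and the CD8 chains the least in both groups. In DM the order of mean FPKM was Trbc2, Trbc1, Trac, Cd3g, Cd4, Cd3d, Cd3e, Cd247, Cd8b1 and Cd8a. In CONT, Trac stood before Trbc1 and Cd4 before Cd3g, with the order otherwise as in DM. Many neighbours overlapped in their ranges of mean ± SD. In DM these included Trbc2 and Trbc1, Trbc1 and Trac, Cd4 and Cd3d, and Cd3e and Cd247. In CONT they included Trbc2 and Trac, Trac and Trbc1, Cd4 and Cd3g, Cd3g and Cd3d, and Cd3d and Cd3e. Within single libraries, Trac was above Trbc1 in each CONT library and below it in each DM library. Constant regions and CD3 chains did not overlap in level, since the lowest value of Trac, Trbc1 or Trbc2 in any library, 319 FPKM, was above the highest value of any CD3 chain, 233 FPKM.

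**Figure D5:**
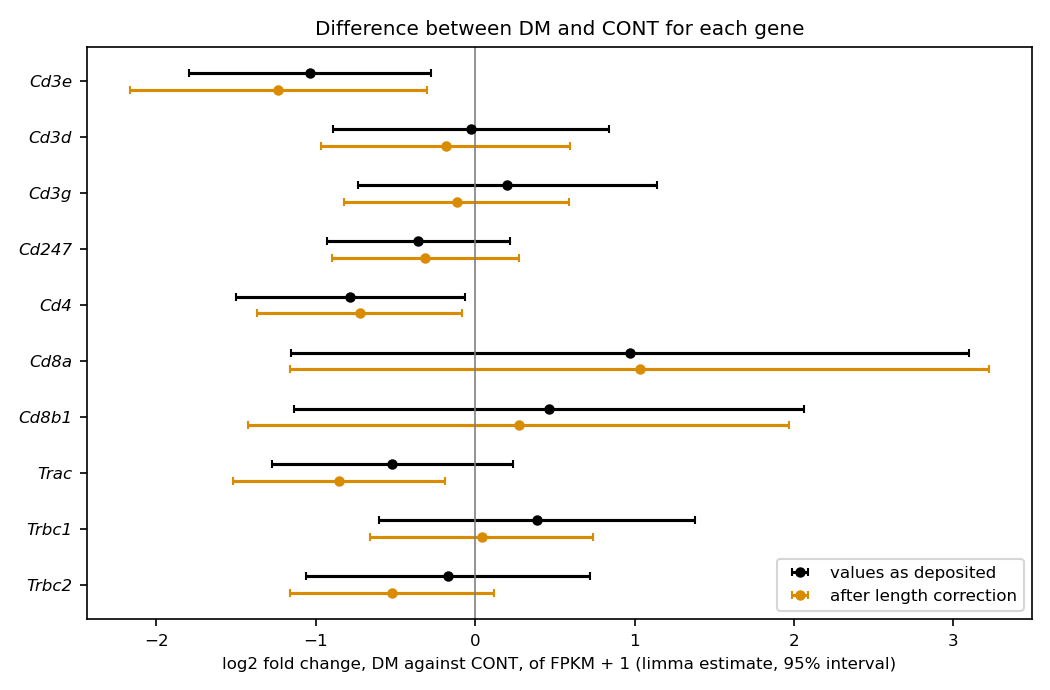
Log2 difference of FPKM + 1, DM against CONT, for the 10 genes, with 95% intervals from limma, in black for the values as deposited and in orange after the length trend of each library was taken off. Cd3e and Cd4 lie below 0 with intervals that exclude 0 in both, at -1.04 and -0.78 as deposited. The interval of Trac excludes 0 after the correction only, at -1.52 to -0.19. Trbc1 moves to 0.041 with the correction.

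The authors' deposited table marked 2 of the 10 genes as significant, Cd3e and Cd8a, where it marked 11.0% of all 28945 genes. In the authors' deposited table Cd3e had a p-value of 0.00302 and a q-value of 0.0577. For Cd8a the authors' deposited table gave a ratio of 10.0 with a p-value of 0.0440 and a q-value of 0.318. That mark followed a p-value below 0.05 and a fold of at least 2 in every row of the authors' deposited table, with no use of the q-value.

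The kinases and adaptors that act just below the receptor are described from a list of 36 genes, all tested. None passed the test. At an unadjusted p below 0.05, 6 had lower values in DM and 1 (Syk) had a higher one, where 6.24% of all genes were lower and 9.77% higher. Every DM library was below every CONT library for 15 of the 36, beside 13.2% of all genes. The list's median difference was -0.41 on the log2 scale, -0.33 after length correction and -0.34 without CONT 1, beside -0.014 for all genes. The genes of the list were long, with a median of 3268 bases.

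Rasgrp1, which turns on Ras downstream of phospholipase C, differed by -1.11 ± 0.37 and Plcg1, the phospholipase itself, by -0.78 ± 0.26 on the log2 scale (limma adjusted p = 0.239 and 0.244). Ubash3a, a negative regulator of receptor signalling, differed by -0.59 ± 0.18 (limma adjusted p = 0.203). Lck, the kinase that CD4 carries, was at 117, 168 and 157 FPKM in DM libraries and 202, 207 and 228 FPKM in CONT libraries (log2 difference -0.54, limma adjusted p = 0.344). The 1 gene higher at an unadjusted p below 0.05 was Syk, the kinase that B cells and myeloid cells use in place of Zap70, at 3.21, 2.19 and 20.8 FPKM in DM libraries and 1.74, 0.928 and 0.931 FPKM in CONT libraries. Its highest value was in DM 3, the library with the most B cell RNA.

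Of 13 surface partners of the receptor none passed. Before adjustment, p was below 0.05 for 4 lower in DM and for 1 (Ctla4) higher, beside 6.24% and 9.77% of all genes. Without DM 3, 1 of the 13 had an unadjusted limma p below 0.05, beside 1250 of 12940 tested genes. The median log2 difference was -0.30. Ctla4, the inhibitory counterpart of CD28 that regulatory T cells carry, was at 49.9, 53.7 and 52.0 FPKM in DM libraries and 27.7, 23.2 and 30.0 FPKM in CONT libraries. The libraries of each group lay close together and the groups far apart, with a log2 difference of 0.92 ± 0.20 (limma adjusted p = 0.0839). The lower partners were Cd5 (-0.74), which dampens receptor signals, Cd6 (-0.72), its relative, Cd28 (-0.95), the costimulatory receptor, and Cd40lg (-0.96), with limma adjusted p between 0.215 and 0.270.

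Transcription factors of the T lineage and of the choice between CD4 and CD8 made up a list of 15. None passed. Before adjustment, 4 had a p below 0.05 with lower values in DM, beside 6.24% of all genes. Without DM 3, 0 of 15 had an unadjusted limma p below 0.05, beside 1250 of 12940 tested genes. The median log2 difference was -0.57, or -0.34 after length correction. Zbtb7b, which encodes ThPOK, the factor that commits cells to CD4 and silences CD8, was at 14.6, 23.1 and 13.3 FPKM in DM libraries and 30.9, 29.9 and 26.4 FPKM in CONT libraries. The groups did not overlap (log2 difference -0.77 ± 0.25, limma adjusted p = 0.219). Tcf7, which encodes TCF-1, was at 137, 235 and 184 FPKM in DM libraries and 560, 306 and 281 FPKM in CONT libraries, and its relative Lef1 differed by -1.29 ± 0.42 (limma adjusted p = 0.236). Runx3, the factor of the CD8 lineage, was at 6.28, 8.45 and 8.47 FPKM in DM libraries and 17.7, 11.3 and 8.61 FPKM in CONT libraries. The lowest of these CONT values, in CONT 3, was next to the DM range.

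Summed markers of basophils and mast cells, of myeloid cells, of plasma cells and of dendritic cells were higher in each DM library than in any CONT library. Those of B cells, erythroid cells and natural killer cells overlapped between the groups. Whether RNA of other cells bears on the lower values above was not tested. Basophil and mast cell markers, 7 genes of which 6 were tested and 4 rose (Mcpt8, Cpa3, Fcer1a and Prss34; 3 of them without CONT 1), beside 1.27% of all genes, summed to between 68.8 and 334 FPKM in DM libraries and 2.97 to 8.28 FPKM in CONT libraries. Fcer1a was listed at 0 in CONT 1. Of 14 myeloid markers Tyrobp and Lyz2 rose, and the list summed to 530 to 2542 FPKM in DM libraries and 154 to 228 FPKM in CONT libraries. Of 7 plasma cell markers Tnfrsf17 rose, a call that ended under total scaling, after length correction, without CONT 1 and without DM 3, with sums of 263 to 487 FPKM in DM libraries and 31.2 to 124 FPKM in CONT libraries. Of 8 dendritic cell markers 6 were tested and Cd209a rose. The CONT means of Fcer1a, Prss34, Tnfrsf17 and Cd209a were below 1 FPKM, at 0.172, 0.939, 0.413 and 0.233. These genes entered the test only through their DM means, so the direction of their calls was set in advance.

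No B cell, erythroid or natural killer marker passed the test. Sums of the 8 erythroid markers were 246 to 5178 FPKM in DM libraries and 115 to 434 FPKM in CONT libraries, and those of the 6 natural killer markers were 20.4 to 57.0 FPKM in DM libraries and 19.2 to 34.2 FPKM in CONT libraries, with Klra8 listed at 0 in all DM libraries. Of other T cells, Trdc, the constant region of the δ receptor chain, was at 2.28, 2.91 and 3.87 FPKM in DM libraries and 3.34, 2.69 and 2.45 FPKM in CONT libraries, and markers of immature thymocytes summed to 17.0 to 22.4 FPKM in DM libraries and 14.5 to 15.7 FPKM in CONT libraries. Among these was Dntt, the terminal transferase of rearranging lymphocytes, at 8.71, 9.79 and 5.45 FPKM in DM libraries and 2.5, 3.91 and 5.12 FPKM in CONT libraries, which did not overlap (limma adjusted p = 0.228). With the score of other cells as a covariate, the log2 difference was -0.76 for Cd3e (95% interval -2.33 to 0.80) and -0.42 for Cd4 (-1.92 to 1.07), and no gene of the table passed in limma (368 had an unadjusted p below 0.05). Since the score itself did not overlap between DM and CONT libraries, group and other cells cannot be told apart in that fit.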

How the data were processed

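Total RNA of splenic CD4+ T cells was sequenced in 3 DM and 3 CONT libraries, extracted with Trizol per the labels' protocols. The submitters' processing notes name cutadapt 1.9, FastQC and the build GRCm38; the sources used here do not give the aligner, the quantifier or the treatment of strand and shared reads. The authors deposited FPKM per gene and library under a header that speaks of counts; counts and depth are unknown. The authors deposited for each gene also their p-value, their q-value, the ratio of group means (fold) and the log2 of that ratio; the sources used here do not name the test. All per-sample columns were used.

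The test across genes used log2(FPKM + 1) and limma 3.58.1 under R 4.3.3 (trended, robust prior variance, no covariate), for 13106 genes with a group mean of at least 1 FPKM. Fold changes on this scale understate those of low genes. The procedure was tested on simulated data. Length correction took off a lowess (span 0.3) of each library's deviation on log2 transcript length. Ratios were compared by exact permutation. Identifiers matched GENCODE M21 for 28864 of 28945 genes.

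The 10 genes and all lists were chosen with earlier results of these data known. Besides the 10, a rule took up to 4 genes per list by smallest p and every list gene that passed. It also took the 3 genes most correlated with Cd3e, Cd3g, Cd4 and Trac. Not all genes taken by smallest p are named, and none of those from the B cell, erythroid and natural killer lists is. Lck, Syk, Cd28, Eomes, Prf1, Crtam, Lag3, Xcr1, Klra8 and the joining segments were added after their values were seen. A gene that the rule takes is not reported here. Of 158 list entries 154 were in the table; the others were not analysed here. Alternatives were other scalings, filters, pseudocounts and variance models, a replicate block, an other-cell covariate, gene classes left out and each library left out. Length correction and leaving out CONT 1 with DM 3 were chosen after seeing the data. Plots come from Python 3.11.15 (matplotlib 3.10.9).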

Additional observations from a re-analysis of the deposited data

How the results depend on the processing

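None of the 10 genes passed the test in the 18 alternatives. Cd3e, Cd4, Trac and Cd247 stayed lower in DM and Trbc1 higher in all 18: Cd3e lay between -1.39 and -0.73 (limma adjusted p 0.157 to 0.946), Cd4 between -1.14 and -0.42, Trac between -0.88 and -0.40, Cd247 between -0.71 and -0.11, and Trbc1 between 0.034 and 0.90 on the log2 scale. The 9 ratios kept their direction in their 10 alternatives each. Total scaling moved the median of all genes to -0.32 on the log2 scale; there Trac (-0.88) and Cd247 (-0.71) also had an unadjusted limma p below 0.05.

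Cd3g turned to -0.15 under total scaling, -0.12 after length correction and -0.065 without CONT 1 and DM 3. Cd3d turned to 0.0063 under median-of-ratios scaling and to 0.088 with the other-cell covariate, which also turned Cd8b1 to -1.95, Cd8a to -2.32 and Trbc2 to 0.034. Cd8b1 was at -0.41 without CONT 1 and DM 3. Leaving out single libraries, Cd3g ranged from -0.15 to 0.53, Cd3d from -0.35 to 0.28, Cd8b1 from -0.42 to 1.01 and Trbc2 from -0.39 to 0.072. For Cd8a no value could be had without DM 3, nor at a minimum of 5 FPKM. The cause of these turns was not tested.

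Over all genes 199 passed, against 28 with no filter, 63 without immunoglobulin, ribosomal protein and pseudogene rows, and 0 with the other-cell covariate in limma (368 at an unadjusted p below 0.05). Leaving out single libraries gave 24 (without DM 1) to 192, with 87 without CONT 3 and 67 without DM 3. The other alternatives gave 133 to 221.

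Same-numbered libraries deviated in opposite ways (r = -0.36, -0.38 and -0.20). Deviations from a mean of 3 libraries depend on each other, so these r values cannot decide whether same-numbered libraries were paired. The labels name no pairing. With a replicate block 204 genes and none of the 10 passed, and of the 10 Cd3e stayed below an unadjusted p of 0.05 while Cd4 did not. No counting interval can be given, since depth is unknown.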
